A study of Triticum aestivum with 10 samples.

Results

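Among the 771 genes that the array annotation lists, 2 could be placed by name in the heat shock and protein folding machinery. They are hsp16.9A (LOC543277) and FKBP70 (LOC543314), and each is read by 1 probe set. The probe sets are all those that the annotation assigns to these genes, out of 61179 probe sets tested. The search covered heat shock proteins, chaperones, cyclophilins, FK506-binding proteins, disulfide isomerases and lectin chaperones by symbol and alias and found 2 genes. Only 101 of the 771 genes have an alias, and a gene listed by locus number alone could not be found. These 2 genes are thus only the named part of that machinery, and their results do not extend to members that carry no name in this annotation. Affymetrix wheat arrays measured RNA of whole developing seeds of Redland, a winter wheat cultivar. There were 10 arrays in 5 groups of 2. Control seeds, from plants watered throughout, were taken 24, 48 and 72 hours after fertilization (HAF), and drought seeds, from plants whose watering was stopped, 48 and 72 HAF. The study addressed early seed development with and without drought. All plants were vernalized and grown in the same chamber regime before treatment. The labels give the drought start as 24 HAF in one place and 48 HAF in another, so the seeds of 48 HAF may have been at the very start of the stress. The labels call the samples of a group biological replicates and name no plant or pot, so the spread behind every p-value is that between these samples and may be technical.

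Small heat shock proteins bind partly unfolded proteins and keep them from clumping until the chaperones that use ATP can refold them. In plants they are known for strong induction by heat and for accumulation in maturing seeds. Hsp16.9A is a wheat member of the class that acts in the cytosol. FKBP70 belongs to the large FK506-binding proteins, immunophilins that join peptidyl-prolyl isomerase domains, which turn proline bonds in a polypeptide, to a helical repeat through which such proteins dock on HSP90. Bread wheat carries several near-identical copies of most genes, and a probe set may read more than one of them. Which copies these 2 probe sets read was not tested.

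Some arrays differed from the rest in ways that bear on both genes. Control 24 HAF replicate 2 correlated with the other arrays at r = 0.811 to 0.898 across probe sets, and drought 72 HAF replicate 2 at no more than 0.959, while the remaining 8 arrays correlated with each other at 0.967 to 0.996. The bacterial hybridisation control BioB read 11.9 on the log2 scale on control 24 HAF replicate 2 and 4.01 to 6.97 on the other arrays. Gliadins, storage proteins of the endosperm, were represented by 5 genes found by alias. Their mean log2 level was 6.09 to 6.88 on 3 of the 72 HAF arrays, but 2.61 on control 72 HAF replicate 1, as low as on the 48 HAF arrays (2.56 to 2.84). On those 3 arrays the lowest of the 5 genes read 1.98 to 2.72 and the highest 9.16 to 10.2, so the mean covers unlike levels. On control 24 HAF replicate 2 the mean was 5.80, against 2.71 on replicate 1. By this mean, control 72 HAF replicate 1 and control 24 HAF replicate 2 went against the order of their labelled times. The search by name for pollen genes found only profilin, and whether its RNA is particular to pollen was not tested. Profilin lay at 12.4 to 12.6 on all 10 arrays, and 3 photosynthesis genes at a mean of 11.6 to 12.3. In whole seeds, fewer cells of a type and less RNA per cell cannot be told apart.

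Hsp16.9A was a dim probe set at every stage and was brighter at 72 HAF than at 48 HAF by the group means in both treatments. In control seeds of 24 HAF its log2 expression value was 2.87 on replicate 1 and 3.33 on replicate 2. In control seeds of 48 HAF it was 2.64 and 3.47, and in drought seeds of 48 HAF 3.84 and 3.09. The replicates of each 48 HAF group lay far apart, and the ranges of the 2 groups overlapped. At 72 HAF the values were 3.98 and 3.85 in control seeds and 3.91 and 4.01 in drought seeds. The 4 arrays of 72 HAF thus spanned 0.16, while the 4 arrays of 48 HAF spanned 1.21. On all 10 arrays the value lay under the median of all probe sets on that array, with differences of -1.47 to -0.16 on the log2 scale. A probe set's brightness depends on its probes as well as on the transcript, and signal over background was not measured, so the transcript may not have been detected in the earlier seeds.

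**Figure D1:**
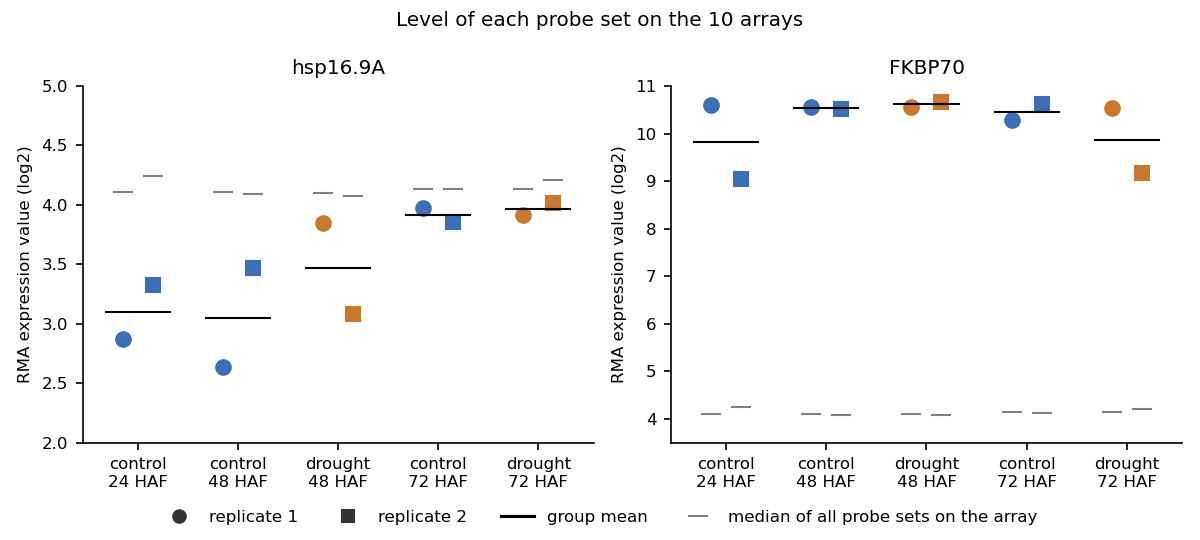
Log2 expression value of hsp16.9A (left) and FKBP70 (right) on each array by group, with circles for replicate 1, squares for replicate 2, black bars for group means and grey dashes for the median of all probe sets on the same array; the vertical axes differ and do not start at 0. Hsp16.9A lies between 2.64 and 3.84 at 24 and 48 HAF and between 3.85 and 4.01 at 72 HAF, and FKBP70 lies between 10.3 and 10.7 on 8 arrays and at 9.05 and 9.18 on control 24 HAF replicate 2 and drought 72 HAF replicate 2.

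Ordered by group mean, hsp16.9A was lowest in control seeds of 48 HAF (3.05 ± 0.59, SD, n = 2), followed by control seeds of 24 HAF (3.10 ± 0.33), drought seeds of 48 HAF (3.46 ± 0.54), control seeds of 72 HAF (3.91 ± 0.088) and drought seeds of 72 HAF (3.96 ± 0.071). Each neighbour in that order overlapped the next except drought 48 HAF and control 72 HAF, whose nearest arrays were 0.0084 apart, less than either group's SD.

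Averaged over both treatments, hsp16.9A was 0.68 higher at 72 HAF than at 48 HAF on the log2 scale (95% interval 0.09 to 1.27), or 1.60-fold in probe signal, and all 4 arrays of 72 HAF lay above all 4 of 48 HAF. Of all probe sets, 4.9% were separated in that direction and 12.2% in either. By limma over all probe sets the unadjusted p was 0.0281 and the adjusted p 0.974, so the difference did not pass the threshold of 0.05. No probe set passed it in this comparison (0%), and 2298 of 61179 (3.76%) had an unadjusted p under 0.05. An exact two-sided permutation test that exchanged times within each treatment gave p = 0.0556, the smallest it can give with 8 arrays, and 0.222 after Benjamini-Hochberg adjustment over the 4 such tests made. The arrays of 72 HAF also lay above both of 24 HAF, a pattern shown by 1.23% of all probe sets, and by 0.535% of the probe sets with a mean log2 value under 4. The complete separation rested on a margin of 0.0084. With each array centred on its median, or with quantile normalization, 1 array of 48 HAF, drought replicate 1, rose above the lowest of 72 HAF, while the permutation p stayed at 0.0556.

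Taken separately, both treatments had the higher mean at 72 HAF. In control seeds, hsp16.9A was 0.86 higher at 72 than at 48 HAF (95% interval 0.03 to 1.70; 1.82-fold in probe signal). Both arrays of 72 HAF lay above both of 48 HAF, as did those of 15.7% of all probe sets. Its unadjusted limma p of 0.0436 ranked 143 of 61179, and its adjusted p was 1. In that comparison 0 probe sets (0%) passed the threshold, and 187 (0.306%) had a p below it before adjustment. The control difference was 0.45 without control 48 HAF replicate 1, and 1.28 with that array but not replicate 2. In drought seeds the difference was 0.50 (interval -0.33 to 1.33, adjusted p = 0.953), with 4.04% of all probe sets at an unadjusted p under 0.05 and 0% past the threshold. The arrays were separated here too, as in 23.3% of all probe sets. With 1 drought array of 48 HAF left out, the difference was 0.12 (replicate 2 omitted) or 0.88 (replicate 1 omitted). Control 72 HAF replicate 1, the array with low gliadins, had an hsp16.9A value of 3.98, and control 24 HAF replicate 2, the array with high gliadins at 24 HAF, had 3.33, above the 2.87 of replicate 1, as for the gliadins. Whether the stage of the seeds on these arrays had a part in the result was not tested. Without control 72 HAF replicate 1 the difference over both treatments was 0.65. From 24 to 48 HAF in control seeds it differed by -0.05 (interval -0.88 to 0.79, adjusted p = 0.958), and the sign turned with either rescaling of the arrays.

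Drought and watered seeds did not differ in hsp16.9A beyond the spread between arrays. At 48 HAF drought seeds were 0.41 higher (95% interval -0.42 to 1.25, limma adjusted p = 1), at 72 HAF 0.05 higher (-0.78 to 0.88, adjusted p = 1), and over both times 0.23 higher (-0.36 to 0.82, adjusted p = 1; exact permutation p = 0.444). None of the probe sets passed in any of these comparisons (0% in each), and 82 (0.134%), 252 (0.412%) and 68 (0.111%) had an unadjusted p under 0.05, respectively. The mean difference at 48 HAF rested on control replicate 1 and drought replicate 1. It was -0.00022 without the former and 0.035 without the latter, and 0.83 and 0.79 without control replicate 2 and drought replicate 2. The drought difference was 0.37 smaller at 72 than at 48 HAF (-0.37, interval -1.54 to 0.81, adjusted p = 1; 0 probe sets or 0% passed and 227 or 0.371% had an unadjusted p under 0.05). On the scale of the probe signal the intervals reach 2.37-fold at 48 HAF and 1.84-fold at 72 HAF, which sets no limit on the transcript of a dim probe set.

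**Figure D2:**
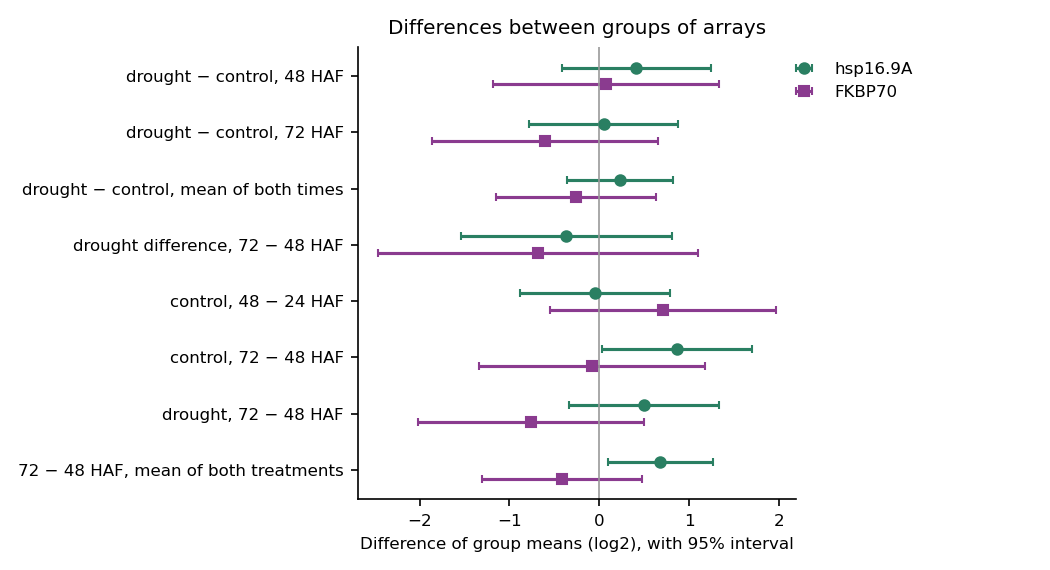
Differences of group means in hsp16.9A (green circles) and FKBP70 (purple squares) on the log2 scale, each with its 95% interval from the limma fit, for the 8 comparisons. The intervals of hsp16.9A exclude 0 for control seeds between 48 and 72 HAF (0.03 to 1.70) and for both treatments together (0.09 to 1.27), with adjusted p of 1 and 0.974, and every interval of FKBP70 includes 0. Each interval rests on a spread taken from all groups, which for FKBP70 includes its low arrays.

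The spread of hsp16.9A between replicates was itself unusual at 48 HAF. Its SD of 0.59 in control seeds was larger than that of 96.2% of all probe sets, and its SD of 0.54 in drought seeds larger than that of 95.7%, against median SDs of 0.13 in each group. At 72 HAF its SDs were larger than those of only 25.1% (control) and 12.0% (drought) of probe sets. The array-to-array pattern at 48 HAF crossed the treatments, with control replicate 2 and drought replicate 1 high and control replicate 1 and drought replicate 2 low. Over all probe sets, the replicate differences of these 2 groups correlated at -0.489, so a crossed order was not particular to hsp16.9A. Against the median of the 8 well-correlated arrays, hsp16.9A was 1.02 lower on control 48 HAF replicate 1, 0.79 lower on control 24 HAF replicate 1 and 0.57 lower on drought 48 HAF replicate 2. Among 9415 probe sets of like level (within 0.5 on the log2 scale), 0.138, 0.212 and 1.20% lay lower still on those arrays, while the medians of these probe sets lay between -0.011 and -0.0035 there. Those arrays were picked for their low hsp16.9A values, so small shares follow in part from the choice. On control 48 HAF replicate 2 the share was 18.6%, and on drought 48 HAF replicate 1 it was 83.6%.

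The annotated gene whose pattern came closest to that of hsp16.9A over the 10 arrays was LOC543183 (wcH2B-6), a histone H2B gene, with a Pearson r of 0.967 and a Spearman rho of 0.952. Among all 61179 probe sets none had a higher r, and over the 8 well-correlated arrays r was 0.990. The H2B probe set was bright, and its whole range was narrow. It read 11.4 and 11.6 in control seeds of 24 HAF, 11.2 and 11.5 in control seeds of 48 HAF, and 11.7 and 11.4 in drought seeds of 48 HAF. At 72 HAF it read 11.7 on both control arrays and 11.7 and 11.8 on the drought arrays, and it shared the crossed order of the 48 HAF replicates with hsp16.9A. Next came LOC100037556 (r = 0.936), LOC543463 (0.907), LOC780658 (0.896) and LOC543477 (0.885), none of which has another name in the reference table. These genes were picked as the highest of 770, so their r is a description and carries no p. The probe sets of LOC543183, LOC100037556 and LOC543463 have identifiers ending in _x_at, the array maker's mark for probes that may also bind other transcripts.

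FKBP70 was a bright and steady probe set, except on the 2 arrays that stood apart. In control seeds its log2 expression value was 10.6 and 9.05 at 24 HAF, 10.6 and 10.5 at 48 HAF, and 10.3 and 10.6 at 72 HAF. In drought seeds it was 10.6 and 10.7 at 48 HAF and 10.5 and 9.18 at 72 HAF. The 2 low values belong to control 24 HAF replicate 2 and drought 72 HAF replicate 2, and in both groups the other replicate lay with the remaining arrays. Over those 8 arrays the mean was 10.5 ± 0.12 (SD, n = 8, 5 groups together) and the range 0.37, smaller than that of all but 13.9% of probe sets, whose median range was 0.62. On all 10 arrays FKBP70 lay above at least 95.03% of the probe sets.

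By group mean the order was control 24 HAF (9.82 ± 1.10, SD, n = 2), drought 72 HAF (9.86 ± 0.95), control 72 HAF (10.5 ± 0.25), control 48 HAF (10.5 ± 0.034) and drought 48 HAF (10.6 ± 0.062). All neighbours in this order overlapped except the last, where both drought arrays of 48 HAF lay above both control arrays, by 0.08 on average. At that time 31.3% of all probe sets were separated in one direction or the other, and 15.9% in this one. By limma the difference at 48 HAF was 0.08 (95% interval -1.18 to 1.34, adjusted p = 1). The fit takes the spread from all 5 groups, so this interval does not measure the spread at 48 HAF alone. The SDs of 1.10 and 0.95 in the groups with a low array widen the intervals of every FKBP70 comparison.

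The differences of FKBP70 that involve drought seeds of 72 HAF or control seeds of 24 HAF depended on the 2 arrays with low values. At 72 HAF drought seeds were 0.60 lower than control seeds (-0.60, interval -1.86 to 0.66, adjusted p = 1), but 0.07 higher without drought replicate 2. Over both times drought differed by -0.26 (interval -1.15 to 0.63, adjusted p = 1, exact permutation p = 0.778) and by 0.08 without that array. The change of the drought difference between 48 and 72 HAF was -0.68 (adjusted p = 1) and -0.0042 without it. In drought seeds FKBP70 was lower at 72 than at 48 HAF on both arrays (-0.76, interval -2.02 to 0.50, adjusted p = 0.953), a separation shown by 21.2% of probe sets in that direction. Without drought 72 HAF replicate 2 that difference was -0.08. Over both treatments the difference between 72 and 48 HAF was -0.42 (adjusted p = 0.974, exact permutation p = 0.278). Leaving out drought 72 HAF replicate 2 brought it to -0.08, and leaving out replicate 1 to -0.75. In control seeds alone the difference was -0.08 (adjusted p = 1), and it uses neither low array. That p does not leave them out, as the fit takes its spread from all 5 groups.

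From 24 to 48 HAF in control seeds FKBP70 was 0.71 higher by the means (95% interval -0.55 to 1.97, limma adjusted p = 0.621), or 1.64-fold. None of the probe sets passed in this comparison (0%), and 907 (1.48%) had an unadjusted p under 0.05. With control 24 HAF replicate 2 alone standing for 24 HAF, the difference was 1.49 (adjusted p = 0.0366), as 25621 of the 61179 probe sets also passed. That fit has 1 array, the one that stands apart, for 24 HAF, and assumes that it varies like the other groups. With replicate 1 alone it was -0.06 (adjusted p = 1).

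Of the probe sets of like level with FKBP70, 74.7% lay below their median of the other 8 arrays on control 24 HAF replicate 2. On drought 72 HAF replicate 2, 62.9% did, and FKBP70 read lower than most of them on both arrays. Probe sets of like level were picked by their level on the other 8 arrays. On a poorly correlated array, bright picks tend to fall and dim picks to rise by that choice alone. Against the median of the other 8 arrays, the 1047 probe sets of like level differed on control 24 HAF replicate 2 by a median of -0.55, with an interquartile range from -1.22 to 0.0048. FKBP70 differed by -1.52, and 17.7% of these probe sets lay lower still. On drought 72 HAF replicate 2 their median was -0.23, with an interquartile range from -0.78 to 0.24. FKBP70 differed by -1.38 there, and 7.93% lay lower. The dim probe sets of like level with hsp16.9A moved the other way, by a median of 0.37 on control 24 HAF replicate 2 and 0.31 on drought 72 HAF replicate 2. Hsp16.9A itself differed by -0.33 and 0.36. Without both arrays the difference of hsp16.9A between 72 and 48 HAF over both treatments was 0.66 (adjusted p = 0.494).

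**Figure D3:**
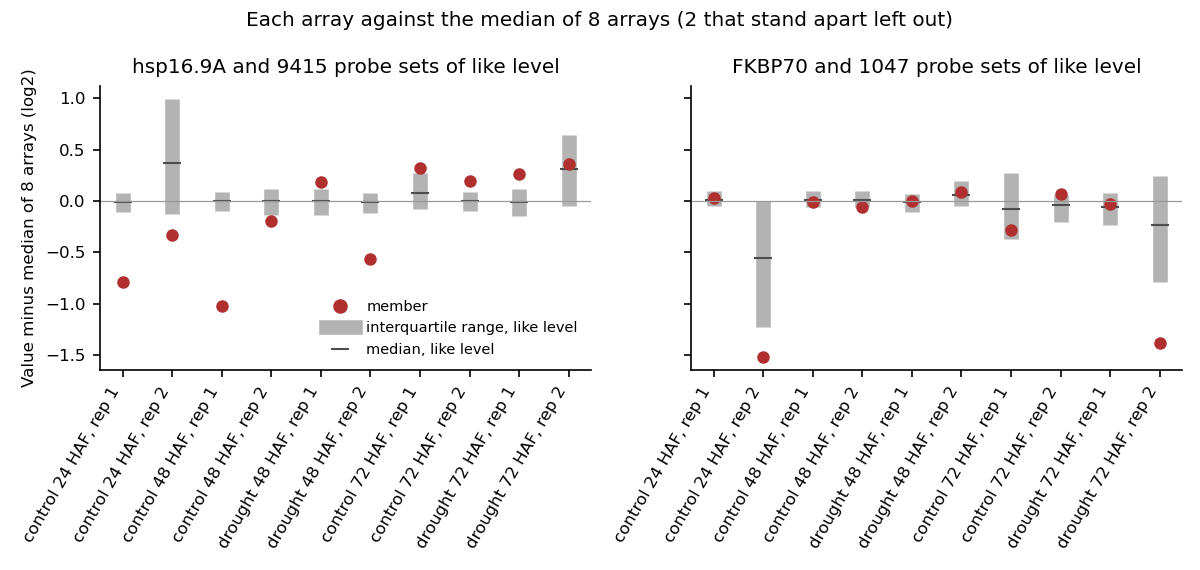
Value on each array minus the median of the 8 arrays left after the 2 that stand apart, on the log2 scale, for hsp16.9A (left, red) with 9415 probe sets of like level and FKBP70 (right, red) with 1047; grey bars span the interquartile range of those probe sets and dark dashes mark their medians. FKBP70 lies at -1.52 and -1.38 on control 24 HAF replicate 2 and drought 72 HAF replicate 2, under the bars there, and hsp16.9A lies under the bars on 5 of the 6 arrays of 24 and 48 HAF, at -1.02 to -0.19.

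The annotated genes closest in pattern to FKBP70 were LOC606332 (Pearson r = 0.994, Spearman rho = 0.782), LOC542789 (0.993 and 0.818), LOC100125712 (0.993 and 0.709), LOC780637 (0.993 and 0.903) and LOC543447 (0.987 and 0.673). All 5, picked by their r over these same 10 arrays, dropped on the same 2 arrays. LOC606332, for example, read 6.09 on control 24 HAF replicate 2 and 6.44 on drought 72 HAF replicate 2, against 9.30 to 9.80 on the other 8 arrays. Without those arrays the r of the 5 genes with FKBP70 was 0.755 to 0.888. Of all probe sets, 167 had a higher r over the 10 arrays than LOC543447, whereas 55 had a higher r with hsp16.9A than LOC543477.

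**Figure D4:**
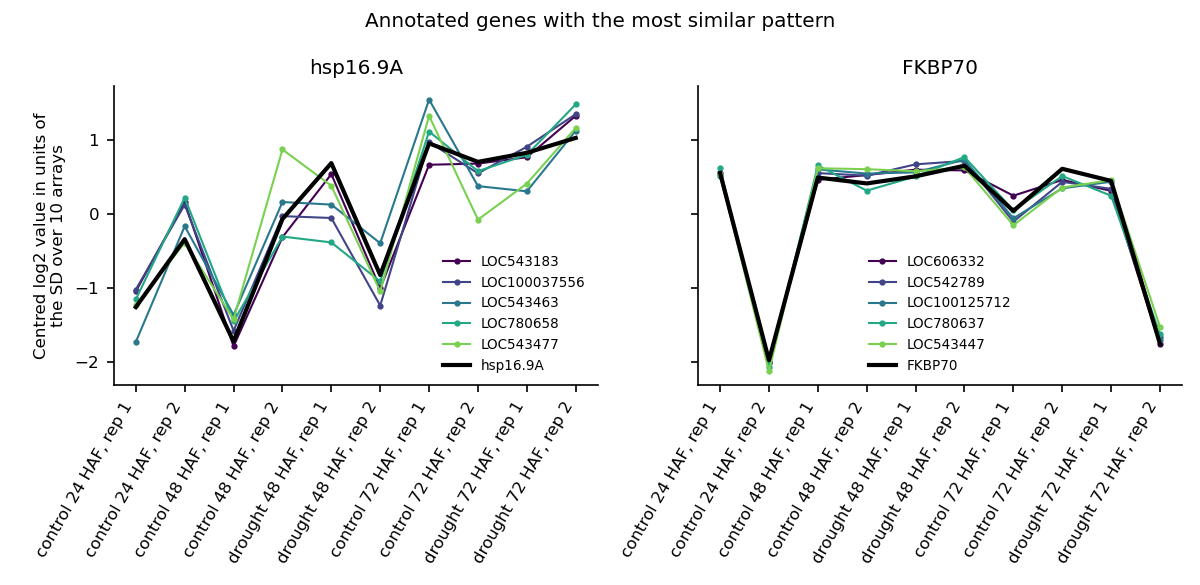
Log2 values on the 10 arrays, centred and divided by the SD over the arrays, for hsp16.9A (left, black) and FKBP70 (right, black) with the 5 annotated genes of highest Pearson r (coloured lines). The genes on the left have r from 0.885 to 0.967 with hsp16.9A. Of these, 4 of the 5 are higher on every array of 72 HAF than on any earlier one, the exception being LOC543477. Of all probe sets, 1.23% are. Those on the right share the 2 low arrays of FKBP70, with r from 0.987 to 0.994. The genes were picked by r over these same arrays, so the shared patterns follow in large part from the choice.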

How the data were processed

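Each sample's RNA, from whole developing seeds, was hybridised to 1 Affymetrix wheat array. The authors deposited log2 expression values per probe set, made with affy and RMA per the submitters' processing notes. RMA corrects background, gives all arrays 1 distribution of probe signals and summarises each probe set, which narrows differences of dim probe sets. The version of either tool is not given in the sources. Values were used as deposited, and 111 control probe sets were left out.

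Both genes were matched by symbol to the platform annotation, and aliases came from the RefSeq gene table by Entrez identifier (1272 of 1273 annotated probe sets matched). Limma 3.58.1 in R 4.3.3 fitted 1 mean per group with a variance trend on intensity, leaving 5 residual degrees of freedom to which the moderation added 3.59, and Benjamini-Hochberg adjustment ran over all 61179 probe sets of a contrast. The fit was tested on simulated data with normal noise of the same size for every probe set of a group and no single array standing apart. That test does not cover arrays or probe sets as variable as some seen here. Genes named for likeness were the 5 of highest Pearson r over 10 arrays. The genes and lists were chosen with earlier results of these data known, and the gliadin aliases, the probe sets of like level and the rescaled permutation tests after the values were seen. With 2 arrays per group, their number limits the precision. No sequence of either gene is shown.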

Additional observations from a re-analysis of the deposited data

How the results depend on the processing

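Of 286 results recomputed under the alternatives, the rescaled permutation tests among them, 266 kept their sign and call. In 19 the difference changed sign and 1 passed the threshold, and the cause was not tested. No value that changed sign was past the threshold on either side. Settings that alter only the variance, or leave out an array that a comparison does not use, cannot move a difference. For hsp16.9A, drought against control at 72 HAF became -0.0035 with quantile normalization and -0.0012 without both arrays that stand apart. Its control difference between 48 and 24 HAF became 0.24 with quantile normalization, 0.029 with arrays centred on the median and 0.18 without both arrays. For FKBP70, leaving out both arrays gave 0.074 for drought at 72 HAF, 0.076 for drought over both times and -0.062 for control 48 against 24 HAF.

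Leaving out 1 array at a time gave these ranges. For hsp16.9A, drought against control lay between -0.00022 and 0.83 at 48 HAF (without control 48 HAF replicate 1 and 2), between -0.013 and 0.11 at 72 HAF (without control 72 HAF replicate 2 and 1) and between 0.02 and 0.44 over both times. Its change of the drought difference lay between -0.78 and 0.049 (without control 48 HAF replicate 2 and 1), and control 48 against 24 HAF between -0.46 and 0.37 (same arrays). The difference between 72 and 48 HAF over both treatments stayed between 0.47 and 0.89, with adjusted p from 0.379 to 1.00. For FKBP70, drought against control lay between -1.28 and 0.074 at 72 HAF and between -0.60 and 0.076 over both times (without drought 72 HAF replicate 1 and 2). Control 48 against 24 HAF lay between -0.062 and 1.49 (without control 24 HAF replicate 2 and 1), the latter past the threshold in a fit that assumes the lone array to vary like the other groups. Drought 72 against 48 HAF lay between -1.43 and -0.082, and 72 against 48 HAF over both treatments between -0.75 and -0.08 (without drought 72 HAF replicate 1 and 2). Control 72 against 48 HAF lay between -0.25 and 0.10 (without control 72 HAF replicate 2 and 1).

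With a replicate block (the replicate number as a term), differences were unmoved (0.68 for hsp16.9A between 72 and 48 HAF, adjusted p = 0.992) and no call changed. The replicate differences of the groups correlated at -0.519 to 0.586. A shared batch was not tested. Array weights, a fit without the intensity trend and a fit to the 8 arrays of 48 and 72 HAF changed no call. The weights came out equal for both arrays of each group, so they could not set an array that stands apart below its replicate. Hsp16.9A fell under the filter at a mean log2 value of 4 and has no value there.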
